A study of Caenorhabditis elegans with 23 samples.

Results

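Whole-animal RNA of young adult Caenorhabditis elegans hermaphrodites was compared between strains that carry one or the other of 2 mutant alleles of set-32, named ok1457 and red11. The members were the set-32 mutant libraries with a column in the deposited table of RPKM values over 1 kb windows, and were chosen by the genotype in their labels. They were 11 of the 23 samples of the series, 5 with ok1457 and 6 with red11, and 8 set-32(+) libraries served as a reference. The study follows how silencing returns after a mutation of hrde-1 is repaired, and both alleles appear in it as set-32 mutants, so the comparison asks how far strains of the 2 alleles read alike.

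The ok1457 libraries were set-32(ok1457) with hrde-1 never mutated, met-2(n4256) set-25(n5021) set-32(ok1457) with hrde-1 never mutated, set-32(ok1457) hrde-1(tm1200), and 2 generations, F5 and F8, of set-32(ok1457) after repair of hrde-1(tm1200). The red11 libraries were set-32(red11) with hrde-1 never mutated, set-32(red11) hrde-1(tm1200), met-2 set-25 set-32(red11) hrde-1(tm1200), generations F4 and F5 of set-32(red11) after repair, and generation F5 of met-2 set-25 set-32(red11) after repair. The set-32(+) libraries were mixed too, but unlike those of either allele they held met-2 set-25 strains in every hrde-1 state. Without repair they were N2, hrde-1(tm1200), met-2 set-25, and met-2 set-25 hrde-1(tm1200). After repair they were generations F4 and F5 with wild-type met-2 and set-25, and F3 and F5 of met-2 set-25. Each combination had 1 library. The repaired worms descend from hrde-1(tm1200) strains, so a difference between alleles and a difference between the strains and lineages that carry them cannot be told apart.

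HRDE-1 is an Argonaute protein of the germline nucleus. It binds small RNAs that are complementary to nascent transcripts and directs nuclear RNAi, the silencing of genes and transposons through chromatin, and this silencing can be inherited. SET-32 is a SET-domain protein that acts in this pathway and takes part in setting up heritable silencing, while MET-2 and SET-25 methylate lysine 9 of histone H3.

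RPKM are reads scaled to window length and library size. The 11 libraries held an estimated 458687 reads, in ok1457 hrde-1(tm1200), to 1152825 reads, in red11 F4. A single read was therefore worth 0.867 to 2.18 RPKM, and values of a few RPKM rest on few reads. Correlations between library pairs ranged from 0.819 to 0.912 over 55 pairs, and no 2 libraries were identical. The labels do not say whether libraries came from separate cultures, so the p-values reflect only how far these libraries spread, which may be technical.

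The set-32 gene itself read differently along its length in the 2 alleles. It lies on chromosome I at 9519244 to 9521275, plus strand, in the WBcel235 annotation. In its first window, from 9519001, which holds 650 coding bases, ok1457 gave 1.43 RPKM with hrde-1 never mutated, 1.15 with met-2 set-25, 2.18 with hrde-1(tm1200), 1.94 at F5 and 0.88 at F8. The red11 libraries gave 2.37 at the lowest, 4.5 at the median and 6.94 at the highest, and the set-32(+) libraries 8.28, 13.4 and 16. The 3 genotypes did not overlap there. However, the highest ok1457 value, 2.18 RPKM with hrde-1(tm1200), was 1 read of that library. It lay below the lowest red11 value, 2.37, by less than 1 read. The order turned in the next window, from 9520001, with 759 coding bases.

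There, ok1457 gave 20.1, 9.21, 8.72, 20.4 and 15.8 RPKM in the same order of libraries. The red11 values had a minimum of 2.19, a median of 5.26 and a maximum of 7.88, and set-32(+) a minimum of 9.94, a median of 12.9 and a maximum of 22.2. All 5 ok1457 libraries lay above all 6 red11 libraries, and inside or just below the set-32(+) range. On the log2(RPKM + 1) scale, the level in ok1457 exceeded that in red11 by 1.51 ± 0.37 (SE), which did not pass the test over all windows (limma, adjusted p = 0.155). For the first window the difference was -1.15 ± 0.44 with an adjusted p of 0.44. Against set-32(+), in a fit over 19 libraries, the first window fell by 2.49 in ok1457 (limma, adjusted p = 0.000399), while red11 gave -1.37 (adjusted p = 0.536). The last window, from 9521001, was at most 2.51 RPKM in any library and was not tested.

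**Figure D1:**
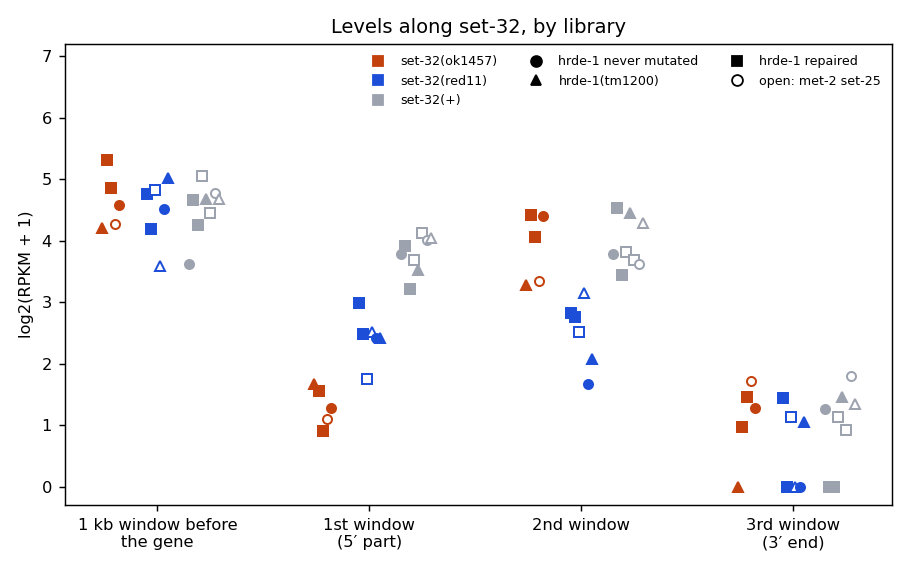
Level, as log2(RPKM + 1), in the 1 kb window before set-32 and in the 3 windows that hold it, with 1 point per library, the allele as colour, the hrde-1 state as shape and met-2 set-25 strains as open points. ok1457 is lowest in the first window, from 0.88 to 2.18 RPKM, and red11 is lowest in the second, from 2.19 to 7.88 RPKM.

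Across the genome few windows differed. The allele difference was fitted with hrde-1 state and met-2 set-25 as further terms over 40708 windows whose mean reached 1 RPKM. No hrde-1 state held met-2 set-25 libraries of both alleles, so the fit takes their effect to be the same in every state. Called windows had an adjusted p (Benjamini-Hochberg) under 0.05 and differed by at least 1 on the log2 scale. Higher in ok1457 were 16 windows, 0.0393% of those tested, in 13 regions, and 1 window, 0.00246%, was higher in red11, together 0.0418%. By comparison, 8.92% of windows had an unadjusted p under 0.05. The count of 17 became 69 without the met-2 set-25 ok1457 library, 67 without ok1457 F8, 38 without the repaired met-2 set-25 red11 library, 7 without red11 never mutated or red11 hrde-1(tm1200), and 5 without ok1457 hrde-1(tm1200) or red11 F5. Without the 3 related ok1457 libraries, hrde-1(tm1200) and its repaired generations F5 and F8, 13 of the 14 called regions lost their call. T22B7.7 kept it in 1 window, where the remaining ok1457 libraries gave 163 RPKM with hrde-1 never mutated and 9.21 with met-2 set-25. The second value lay within the red11 range of 0 to 16 RPKM. Few ok1457 libraries remained in that fit, so a lost call does not show that a difference was absent. Between the single libraries with hrde-1 never mutated and wild-type met-2 and set-25, the 13 regions higher in ok1457 differed by 0.86 to 7.36. At F42A9.6 that difference was 0.37, opposite to its call. The median log2 difference over all windows was -0.02.

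**Figure D2:**
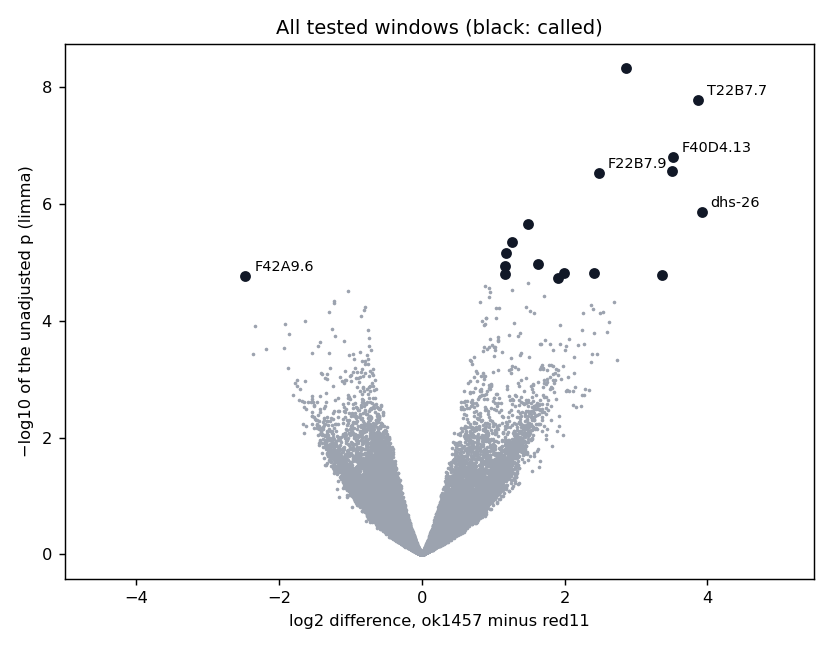
Log2 difference of the level, ok1457 minus red11, against the −log10 of the unadjusted limma p for each of 40708 windows. Black points are the 17 called windows, of which 16 lie to the right and 1, in F42A9.6, to the left.

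The most stable of these was T22B7.7, on the X chromosome from 5651865 to 5654074. Its region ran over 3 windows, from 5651001 to 5654000. In the top window, mostly exonic, ok1457 gave 163 RPKM with hrde-1 never mutated, 9.21 with met-2 set-25, 95.9 with hrde-1(tm1200), 102 at F5 and 78 at F8. The red11 libraries had a minimum of 0, a median of 5.49 and a maximum of 16, and set-32(+) ranged from 1.26 to 12.8. Apart from the met-2 set-25 strain, each ok1457 library lay far above both other genotypes. The log2 difference was 3.87 ± 0.47 (limma, adjusted p = 0.000343), and the call was lost in 2 of 27 alternatives. Against set-32(+) the window was higher by 3.82 in ok1457 (adjusted p = 0.000329) and by 0.01 in red11 (adjusted p = 0.998).

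A second X-linked region held dhs-26, a gene of the short-chain dehydrogenase family, at 3360722 to 3362493. ok1457 gave 86.0, 1.15, 28.3, 80.7 and 9.64 RPKM in the order above. The red11 values were 0 in 4 of 6 libraries and at most 2.16, and set-32(+) reached 8.33. The met-2 set-25 library of ok1457 again stood with the other genotypes, within the red11 range. The log2 difference was 3.92 ± 0.62 (limma, adjusted p = 0.00948), and 9 of 27 alternatives ended the call.

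F40D4.13, on chromosome V at 17155874 to 17157254, was high in several strains of both alleles. ok1457 gave 2.87, 23.0, 69.8, 88.0 and 24.5 RPKM. In red11 it was 0 with hrde-1 never mutated and in both repaired generations of the strain with wild-type met-2 and set-25, but 13.5 with hrde-1(tm1200), 85.1 with met-2 set-25 hrde-1(tm1200) and 20.2 in the repaired met-2 set-25 strain. In set-32(+), hrde-1(tm1200) together with met-2 set-25 gave 106, and met-2 set-25 in the other hrde-1 states gave 1.19 to 6.38. The groups overlapped, and the fitted log2 difference was 3.52 ± 0.48 (limma, adjusted p = 0.00216). That value rests on the same met-2 set-25 effect being taken in every hrde-1 state. The call was lost in 3 of 27 alternatives, and the log2 difference was 1.61 (adjusted p = 0.871) without the 3 related ok1457 libraries.

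A window on chromosome III, from 8653001, divided the ok1457 libraries by ancestry. It covers F22B7.9, which has 570 coding bases there, and 2 tRNA genes, and its values were parts of reads, as where reads are divided between copies, so the source of the reads is uncertain. It stood at 199 RPKM in ok1457 hrde-1(tm1200), 205 at F5 and 207 at F8, the line and its repaired descendants. The other ok1457 libraries gave 32.0 with hrde-1 never mutated and 8.12 with met-2 set-25, while red11 ranged from 14.3 to 17.9 and set-32(+) from 10.3 to 43. The log2 difference of 2.48 ± 0.35 (limma, adjusted p = 0.00248) was 0.36 without those 3 libraries (adjusted p = 0.959).

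The only window called higher in red11 showed the same division. F42A9.6, on chromosome IV at 8609234 to 8611627, gave 0 RPKM in ok1457 hrde-1(tm1200), 0.97 at F5 and 0.88 at F8, against 33 and 18.4 in the ok1457 libraries without that ancestry. The red11 libraries gave 10.4 at the lowest and 27 at the highest. In set-32(+) the window was also low in the repaired met-2 set-25 libraries, at 4.76 and 2.73 RPKM, and ranged from 11.3 to 34.05 in the others. The log2 difference was -2.47 ± 0.46 (limma, adjusted p = 0.0438), and it turned to 0.15 without those 3 libraries.

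The other 9 regions were higher in ok1457 by log2 differences of 1.17 to 2.41. They held ttr-44 of the transthyretin-related family, a window shared by ttr-51 of that family and JC8.7, acox-1.2, an acyl-CoA oxidase gene, clec-85, a C-type lectin gene, phy-2, which encodes a catalytic subunit of the collagen prolyl 4-hydroxylase, T12B5.15, C30G12.2, srlf-7 and hprt-1, which encodes a homolog of hypoxanthine phosphoribosyltransferase. The window of ttr-51 and JC8.7, genes on opposite strands, cannot be given to either, and the alleles overlapped in the windows of each gene beside it. The hprt-1 window holds 252 exonic bases and values that were parts of reads, so the source of its reads is uncertain too. All ok1457 libraries lay above all red11 libraries at ttr-44, acox-1.2, phy-2, T12B5.15, the ttr-51 and JC8.7 window and hprt-1, and the groups overlapped at clec-85, C30G12.2 and srlf-7. Over all windows tested, 0.511% were separated with ok1457 higher and 0.481% with red11 higher.

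At ttr-44 the ok1457 libraries gave 18.6, 18.4, 10.9, 25.3 and 13.2 RPKM, and red11 0 to 4.75 with a median of 2.73. Set-32(+) spanned 0 to 13 and so reached into both groups. For acox-1.2 the ok1457 values were 10.0, 12.7, 21.8, 17.5 and 14.9 RPKM against 1.19 to 5.41 in red11. The log2 differences were 2.41 ± 0.45 and 2.00 ± 0.37 (limma, adjusted p = 0.0438 for each). At phy-2, ok1457 gave 21.5, 24.2, 37.1, 14.6 and 38.6 RPKM and red11 5.77 to 11, a difference of 1.63 ± 0.29 (adjusted p = 0.0426). C30G12.2 stood at 225, 71.4, 174, 148 and 173 RPKM in ok1457 and at 36.2 to 91.1 in red11. Beside T22B7.7 and F40D4.13, it was the region whose top window also passed against set-32(+), with ok1457 higher by 1.88 (limma, adjusted p = 0.000583). Of these 9 calls, 8 to 15 of the alternatives run ended each.

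**Figure D3:**
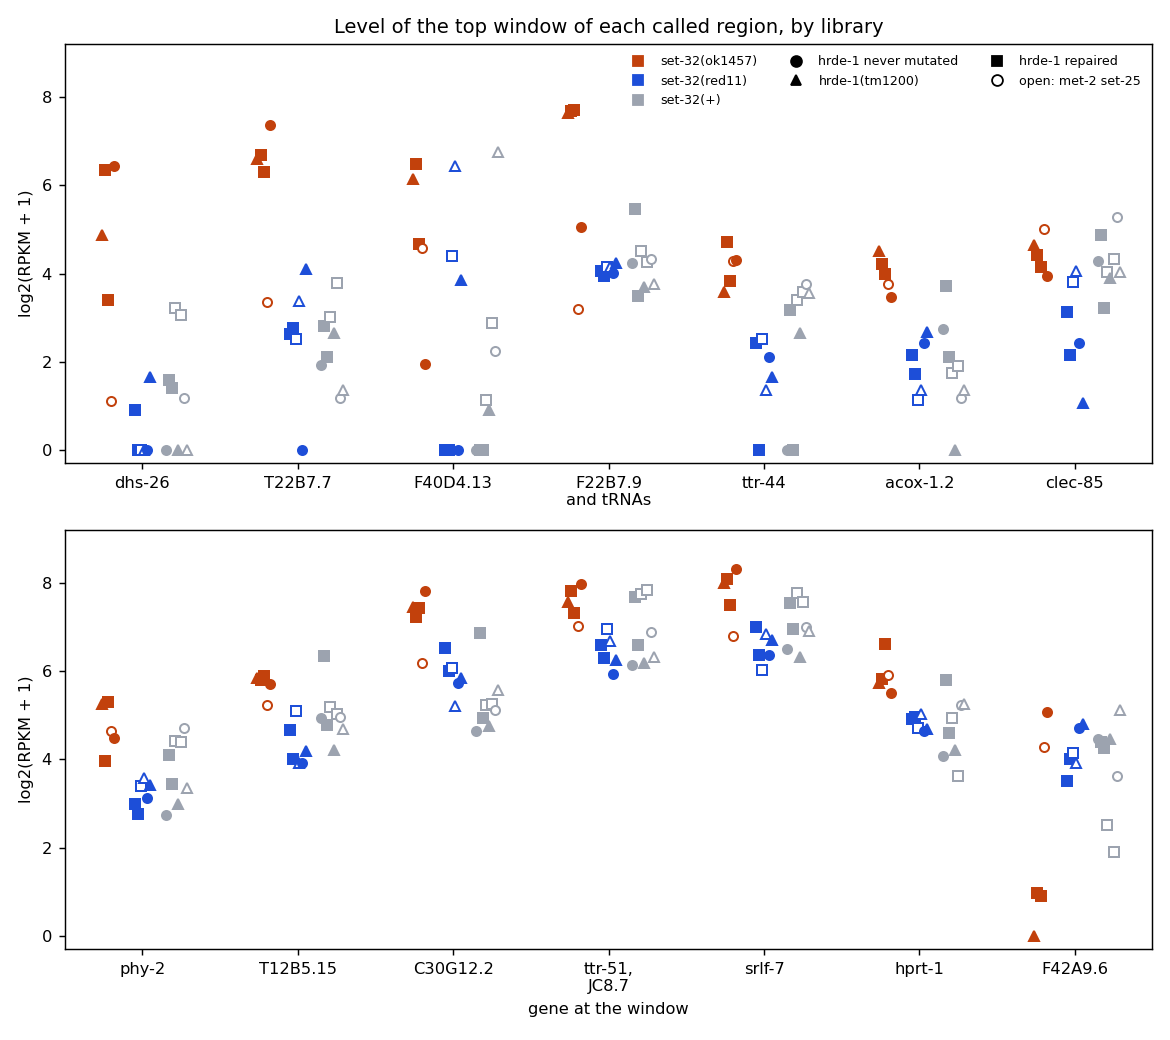
Level, as log2(RPKM + 1), in the top window of each of the 14 called regions, with 1 point per library, the allele as colour, the hrde-1 state as shape and met-2 set-25 strains as open points. At F22B7.9 and F42A9.6 the 3 ok1457 libraries of hrde-1(tm1200) ancestry stand apart, at about 200 and below 1 RPKM, and set-32(+) spans both alleles at several other genes.

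Since 1 region was called higher in red11, the 5 windows of that direction with the smallest p among those that were not called are given as values. They lay in lin-41, which encodes an RNA-binding protein needed for oocyte growth, smg-2, the helicase of nonsense-mediated decay, ubc-13, a ubiquitin-conjugating enzyme gene, cpg-4, a chondroitin proteoglycan gene, and sao-1. The ubc-13 window holds 410 exonic bases of that gene, of which 0 are coding, and 198 exonic bases of the F-box gene fbxc-45. Its difference cannot be given to either gene. At cpg-4, ok1457 gave 2.87, 3.46, 2.18, 3.89 and 4.38 RPKM and red11 7.88 to 17.5 with a median of 11.3. At smg-2, ok1457 gave 14.3, 17.3, 8.72, 15.6 and 21 RPKM and red11 27.3 to 41. Their log2 differences were -1.63 ± 0.35 and -1.23 ± 0.25, and none of the 5 passed (limma, adjusted p from 0.0563 to 0.0847). The groups were separated at each of them except lin-41, where ok1457 reached 48.4 and red11 began at 46.3 RPKM.

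No called window lay within 1 Mb of set-32, and the 2 on chromosome I were 3424 and 5141 kb away. At an unadjusted p under 0.05 with a log2 difference of at least 1 in size, 2.07% of the 1113 windows within 1 Mb passed, against 3.73% of the other 6790 on chromosome I. Over all windows these were 2.5% with ok1457 higher and 1.35% with red11 higher. Chromosome V had the highest share, 4.96%, and chromosome III the lowest, 3.36%. The X chromosome held 5 of the 17 called windows, in the dhs-26 and T22B7.7 regions.

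By gene, where a value is the mean over the windows a gene fills, 0 of 15117 genes passed (limma), and 1420 had an unadjusted p under 0.05. T22B7.7 again had the smallest p, with a log2 difference of 3.36 ± 0.49 and an adjusted p of 0.15. The groups were separated with ok1457 higher in 139 genes, 0.919%, and with red11 higher in 64, 0.423%.

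Gene lists gave no called member in either direction. The median log2 difference over all genes was 0.03, with 6929 of 15117 negative. The list median was -0.42 for P granule genes, whose 15 tested members were all negative, -0.32 for oocyte and eggshell genes, with 20 of 23 negative, -0.25 for Argonaute genes, with 16 of 19 negative, and -0.13 for genes of small RNA pathways, with 25 of 32 negative. No member of these 4 lists was separated between the alleles, and their mean log2 levels over the list overlapped too. For P granule genes these were 4.59 to 5.03 in ok1457, 4.94 to 5.41 in red11 and 4.56 to 5.25 in set-32(+). For oocyte and eggshell genes they were 6.70 to 7.36 in ok1457 and 6.99 to 7.48 in red11. Nuclear RNAi factors had a median of -0.06 over 8 genes, SET domain genes -0.07 over 34 and heterochromatin genes -0.07 over 19.

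Sperm genes had a median of 0.80, with 41 of 45 positive, and cuticle collagen genes 0.52, with 90 of 123 positive. Both lists varied widely within an allele. Their mean log2 level over the list ranged from 1.34 to 4.66 in ok1457 and from 1.34 to 3.02 in red11 for sperm genes, and from 3.13 to 4.99 and from 3.03 to 4.16 for collagens. Transthyretin-related genes, a list chosen after ttr-44 and ttr-51 had been seen, had a median of 0.41 with 35 of 44 positive. Of them 5, with ttr-44 included, were separated with ok1457 higher, against 0.919% of all genes. Medians were 0.23 for C-type lectin genes over 69 tested, 0.07 for F-box genes over 122, 0.04 for heat shock genes over 24 and 0.00 for ribosomal protein genes over 76.

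Among histone genes the median was 0.05, and 6 of 71 gene entries were separated with red11 higher, against 0.423% of all genes. All 6 were his-12, his-15 or his-16, symbols that several near-identical copies share, so the reads cannot be assigned with certainty. An entry of his-12 and an entry of his-15 had identical values, so the 6 entries are not separate measurements. Lists for other tissues gave medians of 0.05 for vitellogenins, -0.05 for embryo genes, 0.01 for intestine, -0.06 for muscle and 0.09 for neurons. Of 16 intestine genes, 9 were positive and 7 negative. Only the intestinal lysozyme gene lys-1 was separated among them, with 237 RPKM on average in ok1457 and 132 in red11 (limma, adjusted p = 0.15). Over all genes, 0.919% were separated with ok1457 higher. By gene value, clec-85 and fbxc-58 were also separated with ok1457 higher, and the heat shock gene hsp-90 with red11 higher. In whole worms, fewer cells of a type and less RNA per cell cannot be told apart. The part of these lists in the called regions was not tested.

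**Figure D4:**
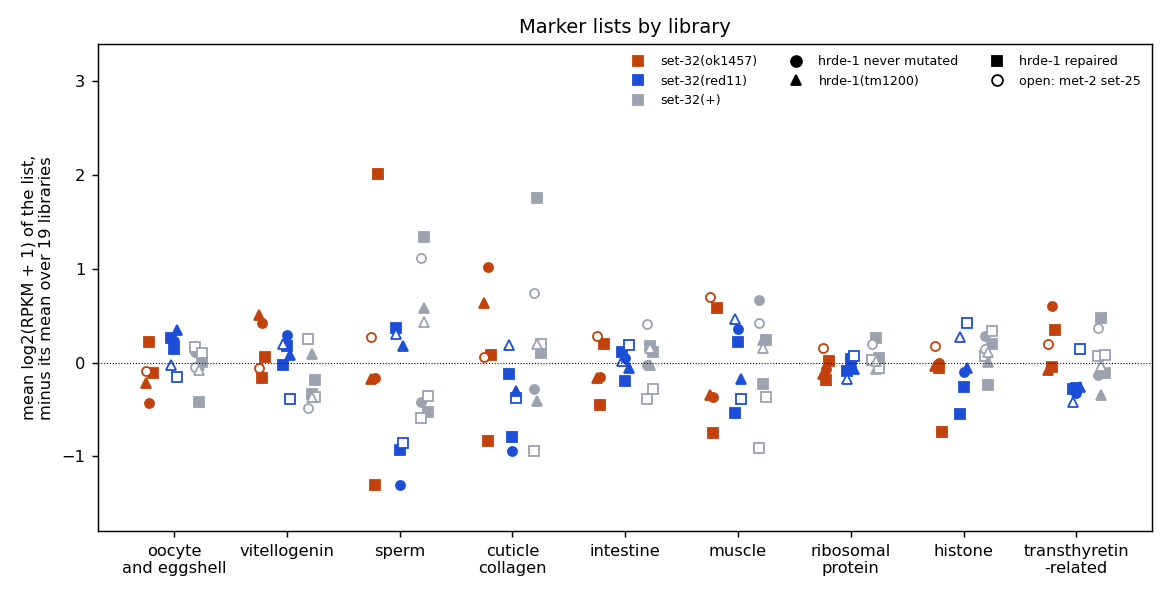
Mean log2(RPKM + 1) of each gene list in each library, minus its mean over the 19 libraries, with colour, shape and fill as in the plot of called regions. Sperm genes ranged from 1.34 to 4.66 within ok1457 and from 1.34 to 3.02 within red11, before the mean was taken off.

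At the loci that depend on hrde-1 no allele difference was called. The authors marked windows as GRTS, a mark whose levels here rose with hrde-1(tm1200), and 142 of them were tested. None was called, 3 were higher in ok1457 and 3 higher in red11 at an unadjusted p under 0.05, together 4.23% against 8.92% of all windows, and their median log2 difference was -0.02. A score was then taken as the mean level of these windows, with 0 set at the set-32(+) libraries with hrde-1 never mutated and 1 at those with hrde-1(tm1200).

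With hrde-1 never mutated the score was -0.005 in ok1457, 0.125 in its met-2 set-25 strain and -0.13 in red11. Under hrde-1(tm1200) it was 0.738 in ok1457, against 1.18 in red11 and 1.34 in its met-2 set-25 strain. After repair, ok1457 scored 0.686 at F5 and 0.56 at F8, and red11 0.513 at F4, 0.449 at F5 and 0.522 in the met-2 set-25 strain. Both repaired ok1457 libraries thus lay above the 3 repaired red11 libraries, whereas under hrde-1(tm1200) the single ok1457 library lay below both of red11.

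The comparison over states used only combinations held by both alleles, so the met-2 set-25 libraries dropped out. Over states the matched difference was -0.0586, with a two-sided exact permutation p of 1 where 0.0833 was the smallest that 24 splits allow. Among the repaired libraries the means were 0.623 ± 0.0892 (SD, n = 2) and 0.495 ± 0.0396 (SD, n = 3). Their difference of 0.128 had an exact permutation p of 0.1, the smallest that 10 splits allow, and 0.2 after adjustment over the 2 tests. The generations differed, F5 and F8 against F4 and F5. Of the 142 windows, 13.4% were separated after repair with ok1457 higher and 4.23% with red11 higher, beside 11.4% and 7.51% of all windows.

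**Figure D5:**
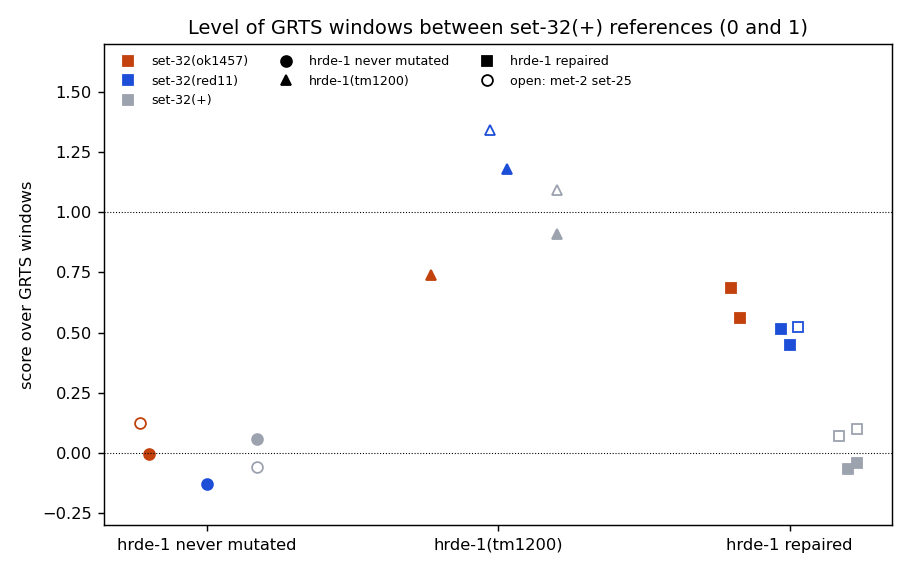
Score over 142 GRTS windows by hrde-1 state, with 1 point per library, where dotted lines mark the set-32(+) references at 0 and 1. Repaired set-32 mutants of both alleles lie between 0.449 and 0.686, and repaired set-32(+) libraries near 0.

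Of 18 windows at single target loci, the repaired libraries of the alleles overlapped in 11, were separated with ok1457 higher in 4, and with red11 higher in 3, namely F07B7.1, scrm-4 and timm-17B.2. The same separation was seen in 11.4% of all windows with ok1457 higher and in 7.51% with red11 higher. The gap at F07B7.1 was slight, with 67.05 RPKM as the highest repaired ok1457 value and 67.09 as the lowest repaired red11 value. At F07B7.2, on chromosome V, the window from 8829001 gave 134 and 130 RPKM in repaired ok1457 and 123, 115 and 123 in repaired red11. C38D9.2, a target of germline nuclear RNAi, gave 115 and 86.8 against 131, 105 and 81.9 RPKM. The window shared by eri-6 and sosi-1 holds 704 exonic bases of sosi-1 and 0 of eri-6. Its values were 23.3 and 28.1 against 20.8, 6.92 and 10.7 RPKM. At scrm-4 they were 24.3 and 19.3 against 26, 27.7 and 32.1 RPKM. The repaired groups overlapped at C38D9.2 and were separated at F07B7.2 and at eri-6 and sosi-1, with ok1457 higher, and at scrm-4, with red11 higher. None of the target loci was called for the allele over all 11 libraries.

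One locus differed between the alleles in opposite ways with hrde-1 never mutated and after repair. timm-17B.2, of the family of mitochondrial inner membrane translocases, lies on chromosome IV at 8396648 to 8397954. With hrde-1 never mutated it gave 66.0 RPKM in ok1457 and 41.5 in its met-2 set-25 strain, against 3.29 in the single red11 library. Under hrde-1(tm1200) the alleles overlapped, with 131 in ok1457 and 172 and 113 in red11. After repair it stood at 0.97 and 5.26 in ok1457, and at 52.0, 50.8 and 53.4 in red11.

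So ok1457 was the higher allele before any hrde-1 mutation and the lower one after repair, where the groups did not overlap. The set-32(+) libraries were low in both states, at 1.82 to 6.06 RPKM, and high under hrde-1(tm1200), at 165 and 178. The allele difference after repair minus that without repair was -5.58 ± 0.79 on the log2 scale (limma, adjusted p = 0.0146). It was the only window called for this term, 0.00246% of those tested, and 2149, or 5.28%, had an unadjusted p under 0.05. The call was lost in 8 of 18 alternatives, among them those without red11 never mutated, ok1457 never mutated, met-2 set-25 red11 hrde-1(tm1200), red11 F4 or red11 F5.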

How the data were processed

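The authors deposited RPKM values for 100257 windows of 1 kb, from total RNA depleted of ribosomal RNA with RNase H and not selected for poly(A), per the labels' protocols, with marks per window such as GRTS whose making is not described. Bowtie 0.12.7 is the aligner named in the labels, per the submitters' processing notes. How strand and reads with several matches were treated, and on which genome build, is not given in the sources used here. The table has 24 columns of other samples, which were not used, and the 4 samples of generation F20 were not analysed here.

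Depth was estimated from the step between low RPKM values. Of positive values, 81.7% to 85.0% were whole multiples of 1 read within 0.0051 RPKM, so no count test was run. Windows carry WBcel235 gene names (overlap of at least 250 bp) because 196 of 201 segments of 500 windows matched its exon density within 200 bp. Another 2 lay between matched ones, and 3 at the end of V were not named. Coordinates of windows are the table's.

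Linear models were fitted to log2(RPKM + 1) in limma 3.58.1 under R 4.3.3, with a trended prior, a scale that understates changes of low windows, with 6 residual degrees of freedom. A region joins called windows that differ in the same direction and are no more than 1 kb apart. Gene values used windows that a gene fills by at least 500 bp, or its best window. Scores were compared by exact permutation of the allele. Over states this was done within hrde-1 and met-2 set-25 states, and among repaired libraries without regard to met-2 set-25. The fit was tested on simulated data. Named were the windows of set-32, all called regions, up to 5 uncalled windows of a direction with few calls, and target loci. Members, lists and loci were chosen with earlier results of these data known. Alternatives changed the pseudocount, the filter, the scaling, the libraries and the windows used.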

Additional observations from a re-analysis of the deposited data

Results flagged for a closer look

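Among 34 groups examined, of which chance marks about 1 in 20, 3 had a library far from the others. The met-2 set-25 library of ok1457 lay low at T22B7.7, with 9.21 RPKM where the other ok1457 libraries gave 78 to 163, and at T12B5.15, with 36.9 RPKM against 51.6 to 58.7. At timm-17B.2 the red11 library with hrde-1 never mutated lay low, at 3.29 RPKM against 50.8 to 172 in the others, which carry hrde-1(tm1200) or descend from such strains. The timm-17B.2 difference between alleles also changed between states, by -5.58 on the log2 scale in the test of that change.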

How the results depend on the processing

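No paired analysis was possible because each genotype and generation has 1 library and the labels give no replicate numbers. A pseudocount of 0.1 left 1 of the 17 called windows. A filter at 0.2 RPKM gave 27, one at 5 RPKM gave 10, and no filter gave 0 (limma), where 5028 windows had an unadjusted p under 0.05. Dropping the met-2 set-25 libraries gave 90 and dropping those with hrde-1(tm1200) 6. There were 11 in repaired libraries, 150 in libraries without repair, 58 with array weights, 47 once windows of divided reads were dropped, and 6 without the 3 ok1457 libraries of hrde-1(tm1200) ancestry, of which 1 was among the 17, a choice made after seeing the data, as was leaving out windows marked misannotated, which gave 18. Leaving out 1 library gave 5 to 69. More windows were higher in ok1457 than in red11 in 26 of 27 alternatives, and the other had none. The cause of these shifts was not tested. For the change with repair, a filter at 5 RPKM, no filter, or a pseudocount of 0.1 left 0 called windows in place of 1 (limma), and the count was 0 to 7 with 1 library left out. The 0 called genes became 0 to 4. The difference in score over states ranged from -0.15 to 0.133 with 1 library left out, so its sign rests on the hrde-1(tm1200) pair, and that among repaired libraries from 0.0654 to 0.192. F42A9.6 reversed to 0.15 without the ok1457 libraries of hrde-1(tm1200) ancestry. In windows of a few RPKM, depth limits what can be seen.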
